A study of Homo sapiens with 4 samples.

Results

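LINC genes are long noncoding RNA genes whose symbol is LINC followed by a number, the name given to long intergenic RNAs that have no better-known function to be named after. Of the 599 such genes among the 25702 genes counted in K562 cells, 107 were taken as expressed: they were chosen by their measured level, CPM of 0.5 or more in at least 2 of 4 libraries. CPM is the count of a gene divided by the sum of all counts in its library, times 1000000. Since levels chose these genes, the levels themselves are given as a description with no test.

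K562 is an established human myeloid leukemia line with erythroid features. In one group it had been nucleofected with the LeGO-iG2 plasmid, which co-expresses green fluorescent protein, carrying the fusion RUNX1::ERG, and in the other with the same plasmid without insert (empty vector, EV). Each group had 2 replicates, so all 4 libraries share the cell line, the plasmid backbone and the transfection, and the labels list no drug treatment. RUNX1::ERG joins the Runt DNA-binding domain of RUNX1 to the Ets DNA-binding domain of ERG, and the comparison asks what its presence changes in the RNA of these cells. Expression was driven from a plasmid in a transient transfection of 1 line, the sources used here do not say whether transfected cells were sorted before RNA extraction, and in such bulk RNA fewer cells of a kind and less RNA per cell cannot be told apart.

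Most long noncoding RNAs are made by RNA polymerase II like messenger RNAs, and many are capped, spliced and polyadenylated but lack a long conserved reading frame. Some stay in the nucleus, where they can bind chromatin proteins or form the scaffold of nuclear bodies, others act in the cytoplasm by binding proteins or microRNAs, and for many no function is known. They are typically transcribed at lower levels and in fewer cell types than coding genes, and many start close to a coding gene on the opposite strand. The libraries were made from poly(A) RNA, so a transcript without a poly(A) tail would be missed.

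The libraries held 59695387 and 73203412 counts in the EV group and 82352144 and 71582089 in the RUNX1::ERG group. A level of 0.5 CPM corresponds to 29.8 to 41.2 counts, and a count of 0 allows up to 3 counts, or 0.0364 to 0.0503 CPM, for counting error only. ERG had 4 counts in each EV library and 80443 and 27218 in the RUNX1::ERG libraries, and RUNX1 had 4736 and 3453 against 66232 and 28769, so the libraries matched their labels. All 10 K562 markers examined, among them the globin genes HBG1, HBG2 and HBE1 and the erythroid factor GATA1, were present in every library. Of the markers of other cell kinds, 2 of 3 for monocytes and 1 of 3 for fibroblasts were higher with RUNX1::ERG. The summed level of the monocyte list was 7.25 and 9.95 CPM with EV and 22.4 and 20.8 with RUNX1::ERG, and that of the fibroblast list was 6.18 and 6.09 against 25.3 and 22.1. The markers called were CD14, LYZ and COL1A1, while the monocyte marker FCN1 had at most 2 counts and the B cell marker MS4A1 had 0 counts in every library. The part of these markers in the LINC values was not tested.

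The 107 genes lay on 22 chromosomes, with 11 each on chromosomes 1 and 7, and 101 of them could be placed on GRCh37 with the GENCODE annotation. Their canonical transcripts had a median length of 1838 bases and a median of 4 exons, beside 1615 bases and 3 exons for the 455 placed LINC genes below the level. A LINC gene and a coding gene are termed head to head where their starts lie within 1000 bases on opposite strands. Their spans may overlap. Such a partner was found for 10 of the 101, or 9.90%, against 2.198% of the other LINC genes. In 15.8% the span overlapped a coding gene, against 8.13% of the others, and in 12 genes an exon overlapped an exon of a coding gene. Earlier names recall how these genes were first listed, as open reading frames of a chromosome for 17 of them and as numbered noncoding RNAs for 11.

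Promoter windows from RefSeq (GRCh38.p14, from 250 bases before to 50 bases after the transcript start) matched 81 of the 107 genes. Windows are shown for LINC01094, LINC00963 and LINC01088, which are among the 5 LINC genes that differed between the groups in the results that follow. LINC00649 had no window, and none is shown for LINC00861, the gene called lower. The windows shown thus cover only genes called higher. The capitals mark letters of the Ets motif, searched on both strands as CAGGAA or CCGGAA. The windows lie on the plus strand at chr4:78645744-78646043, chr9:129488410-129488709 and chr4:78971498-78971797, and each sequence reads 5′ to 3′.
LINC01094: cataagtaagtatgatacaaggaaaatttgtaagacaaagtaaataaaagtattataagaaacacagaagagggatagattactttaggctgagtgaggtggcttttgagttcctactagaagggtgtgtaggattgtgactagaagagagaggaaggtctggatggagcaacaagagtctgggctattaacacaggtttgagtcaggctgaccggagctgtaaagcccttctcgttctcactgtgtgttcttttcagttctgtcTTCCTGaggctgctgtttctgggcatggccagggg
LINC00963: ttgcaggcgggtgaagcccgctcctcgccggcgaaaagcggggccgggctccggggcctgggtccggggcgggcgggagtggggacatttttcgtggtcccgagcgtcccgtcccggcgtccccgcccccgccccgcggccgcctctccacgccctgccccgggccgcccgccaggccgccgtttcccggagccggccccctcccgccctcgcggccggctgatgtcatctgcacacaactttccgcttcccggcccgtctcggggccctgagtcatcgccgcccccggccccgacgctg
LINC01088: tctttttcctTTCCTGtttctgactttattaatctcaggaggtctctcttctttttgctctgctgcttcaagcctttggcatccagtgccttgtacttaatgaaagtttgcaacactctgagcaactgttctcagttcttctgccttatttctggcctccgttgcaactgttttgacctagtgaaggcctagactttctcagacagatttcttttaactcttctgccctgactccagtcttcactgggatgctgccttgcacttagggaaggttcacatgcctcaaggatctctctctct

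The windows of LINC01094 and LINC01088 each held 1 match to the Ets letters, on the minus strand, at positions 266 and 11 counted from 1 at the 5′ end. The window of LINC00963 held none, and no window held the Runt letters TGTGGT or TGCGGT or the GATA letters AGATAA on either strand. Over all 35116 promoter windows of the same length, 41.4% held the Ets letters, 19.6% the Runt letters and 10.3% the GATA letters, and over the windows of the 81 matched LINC genes the shares were 55.6%, 16.0% and 13.6%. The GC content was 43.7% for LINC01094, 44.7% for LINC01088 and 78.0% for LINC00963, beside a median of 58.7% over all windows. By exact match to GRCh37, the RefSeq starts lie 7214, 11714 and 32263 bases downstream of the GENCODE starts of LINC01094, LINC00963 and LINC01088, so another start of each gene is not covered by these windows. A match is a run of letters and not a measured binding site.

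Expressed LINC genes were a small and uneven part of the RNA. Together they took 0.108% and 0.0811% of the counts in the EV libraries and 0.101% and 0.0890% in the RUNX1::ERG libraries, and the 10 most abundant accounted for 42.4% to 46.9% of that. The median of the genes' mean levels was 4.19 CPM, beside 27.2 CPM for the protein-coding genes tested. By mean level, 24 genes were at 10 CPM or more, 63 between 1 and 10, and 20 below 1. The level was reached in all 4 libraries by 86 genes, in 3 libraries by 10 and in 2 libraries by 11. Of the other LINC genes, 268 of the 599 had no count in any library.

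**Figure D1:**
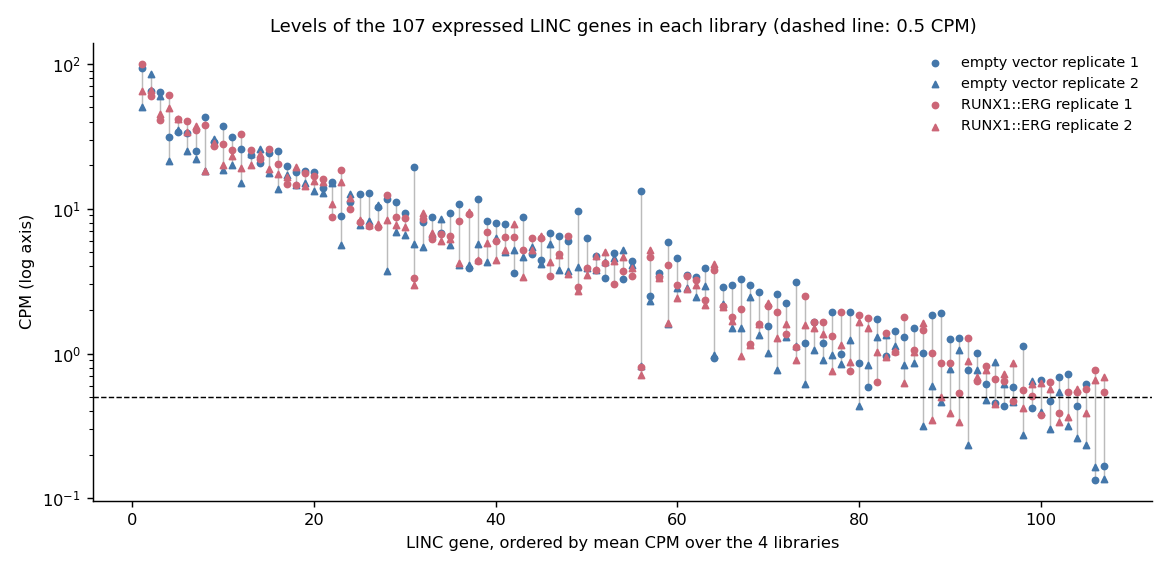
Level of each of the 107 expressed LINC genes in each of the 4 libraries, in CPM on a log axis, with genes ordered by their mean; blue marks EV, red marks RUNX1::ERG, circles replicate 1, triangles replicate 2, and grey lines span the libraries. The levels run from 101 CPM down to below the dashed line at 0.5 CPM, and 62 genes differ by less than 2 times between their highest and lowest library.

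The gene with the highest mean was LINC01000, at 94.1 and 50.1 CPM in the EV libraries and 101 and 65.1 with RUNX1::ERG. LINC00958, also named BLACAT2, followed at 65.2 and 85.8 CPM with EV and 59.9 and 66.4 with RUNX1::ERG, and the libraries of the pair of genes overlapped. LINC00200 on chromosome 10 stood at 64.0 and 60.0 CPM with EV and 41.0 and 45.03 with RUNX1::ERG. Its groups did not overlap, but the difference did not pass the test (log2 fold change -0.57, SE 0.16, adjusted p = 0.0777 by edgeR), and its exons overlap those of ADARB2, an RNA-editing family gene, and WDR37. LINC00667 varied little, from 34.1 to 41.5 CPM, and LINC00221 still less, from 27.2 to 30.4 CPM. LINC00847 lay between 24.97 and 40.6 CPM. LINC00205, which starts 137 bases from the fucosyltransferase gene POFUT2, was at 25.2 and 22.0 CPM with EV and 35.1 and 37.2 with RUNX1::ERG, with groups apart but an adjusted p of 0.0990. LINC01089 and LINC01003 completed the 10 most abundant together with LINC00963.

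Since a long transcript collects more reads, levels of different genes were set side by side per kilobase of the canonical transcript, which was known for 99 genes. LINC01000, the highest by mean CPM, had no such length and has no place in this order. Among the 99, LINC00520, a transcript of 0.432 kb, came first at 53.7 CPM per kb, with 46.6 to 59.1 over the libraries. LINC00674 at 49.1 rests on a canonical transcript of only 0.160 kb, and its libraries ran from 34.0 to 58.7 CPM per kb. LINC00200 at 43.1 and LINC00958 at 38.2 CPM per kb came next, with ranges of 33.7 to 52.6 and 33.0 to 47.3, so that the order among these genes was within the spread of the libraries. LINC00963 had 32.6 CPM per kb with a range of 17.1 to 48.6, which follows the groups. LINC00667 was at 23.4 CPM per kb and LINC00221 at 19.4, with ranges of 21.1 to 25.6 and 18.4 to 20.5 that did not overlap. LINC00205 fell from rank 7 of 107 by CPM to 3.95 CPM per kb, because its canonical transcript has 7553 bases.

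The limit of 0.5 CPM cut through a continuum. Just inside it, by the second-highest library, were LINC00624, LINC01801 and LINC01816, all at 0.546 CPM, and just outside were LINC00663 at 0.498, LINC01590 at 0.461 and LINC02878 at 0.447. LINC00624 qualified through the EV libraries only, while 4 genes qualified through the RUNX1::ERG libraries only and 3 through replicate 1 of both groups only. For those 4, LINC02384, LINC01270, LINC02615 and LINC01801, the rule itself favours a higher RUNX1::ERG value, and for LINC00624 a lower one.

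RUNX1::ERG and EV libraries were compared with edgeR's quasi-likelihood test over 15394 genes, all 107 LINC genes included, with Benjamini-Hochberg adjustment over all of them and a threshold of 0.05. A gene past it is called here. LINC01094, LINC00963, LINC01088 and LINC00649 were higher with RUNX1::ERG and LINC00861 was lower, so 5 of 107, or 4.67%, were called, beside 4.79% of all genes tested. The 4 higher genes stand beside 3.64% of all genes called higher and the 1 lower beside 1.15% called lower. In this fit the share of LINC genes called was near that of all genes, and near the 5.21% of protein-coding genes and the 2.91% of other long noncoding RNA genes. With the replicate number as a block it was 14.95%, beside 11.3% of all genes. With no filter on low counts it was 14.02%, beside 7.38% of a wider set of 20312 genes and 9.58% of the 15394. By DESeq2's Wald test it was 10.3%, beside 7.51% of 16041 genes and 7.78% of the 15389 among the 15394 with an adjusted p. All 5 called genes reached the level in all 4 libraries.

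LINC01094 had 0.938 and 0.970 CPM in the EV libraries and 3.76 and 4.14 in the RUNX1::ERG libraries, from 56, 71, 310 and 296 counts. The RUNX1::ERG libraries lay far above both EV libraries, and replicates within a group were close. After scaling by edgeR's TMM factors the means were 0.968 ± 0.0545 and 3.90 ± 0.312 (SD, n = 2), with a log2 fold change of 2.01 (SE 0.33, adjusted p = 0.00656). The gene lies on the plus strand at chr4:79559934-79604339 (GRCh37), clear of coding genes, and its canonical transcript of 2476 bases has 4 exons. It was called under each of the 12 alternative fits.

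LINC00963 was the only one of the 10 most abundant LINC genes that was called. It had 31.4 and 21.5 CPM with EV and 61.1 and 49.9 with RUNX1::ERG, so the lowest RUNX1::ERG library stood well above the highest EV library. The scaled means were 26.7 ± 6.21 and 54.7 ± 7.07 (SD, n = 2), and the log2 fold change was 1.03 (SE 0.20, adjusted p = 0.0174). It lies on the plus strand at chr9:132239225-132275966 (GRCh37), and the nearest coding gene is 95197 bases away. Without RUNX1::ERG replicate 1 the adjusted p was 0.0737.

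LINC01088 had 3.87 and 4.06 CPM with EV and 9.17 and 9.46 with RUNX1::ERG. The replicates of each group lay close together and the groups apart, with scaled means of 4.02 ± 0.266 and 9.19 ± 0.327 (SD, n = 2). The log2 fold change was 1.19 (SE 0.24, adjusted p = 0.0208), and it was 1.23 and 1.14 without RUNX1::ERG replicate 1 or 2, with adjusted p of 0.0872 and 0.0802. The gene lies at chr4:79860639-80230827 (GRCh37) on the plus strand, and NAA11, an N-terminal acetyltransferase subunit gene, overlaps the end of its span on the other strand. Its GENCODE start is 47 bases from that of PAQR3, which encodes a Golgi membrane protein and runs the other way.

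LINC00649 had 8.91 and 5.64 CPM with EV and 18.5 and 15.2 with RUNX1::ERG. Both groups had replicate 1 above replicate 2, and they did not overlap, with scaled means of 7.34 ± 2.10 and 16.6 ± 2.04 (SD, n = 2). The log2 fold change was 1.18 (SE 0.25, adjusted p = 0.0246), with an adjusted p of 0.113 without RUNX1::ERG replicate 1. It lies at chr21:35287838-35350004 (GRCh37) on the plus strand. Its exons overlap by 246 bases those of ATP5PO, a subunit of mitochondrial ATP synthase on the opposite strand, and the strand setting of the counting is not given, so reads of the overlap cannot be assigned to one of them. ATP5PO itself had 356 and 400 CPM with EV and 454 and 481 with RUNX1::ERG, a log2 fold change of 0.26 with an adjusted p of 0.405.

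LINC00861, on chromosome 8, had 19.4 and 5.75 CPM with EV and 3.33 and 2.98 with RUNX1::ERG. The first EV library stood apart from the others, and the scaled means of 12.6 ± 9.37 and 3.11 ± 0.203 (SD, n = 2) carry that spread. The log2 fold change was -2.02 (SE 0.44, adjusted p = 0.0286). Without that library it was -0.94 with an adjusted p of 0.0587, so both the size and the call rest on 1 library.

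**Figure D2:**
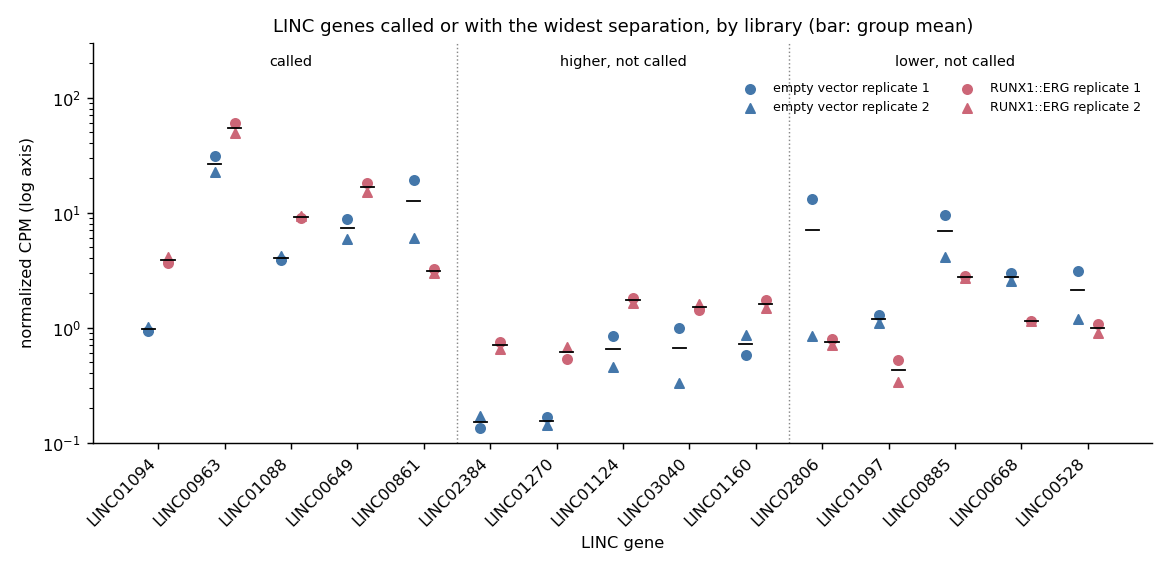
Normalized CPM (scaled by TMM, log axis) of the 5 called LINC genes and of the 10 with the widest rises and falls among genes whose groups did not overlap but which were not called; blue marks EV, red RUNX1::ERG, circles replicate 1, triangles replicate 2, bars group means. LINC01094 and LINC01088 show close replicates in both groups, whereas LINC00861 and LINC02806 have one EV library far above the rest. LINC02384 and LINC01270 reached 0.5 CPM with RUNX1::ERG only, so the choice of genes favoured their rise.

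Groups apart were seen in more genes than passed the test. The RUNX1::ERG libraries both lay above both EV libraries for 25 LINC genes, or 23.4%, beside 25.1% of all genes, and both below for 29, or 27.1%, beside 22.1%, leaving 53 with overlap. The 5 genes that had reached the level through 1 group only are among these, 4 above and 1 below, with a direction that the choice of genes favoured. Without them the counts were 21 above (20.6%) and 28 below (27.5%) of 102. Of the 49 genes with groups apart that were not called, 9 had a mean under 1 CPM and 8 a mean of 10 CPM or more. The log2 fold changes of all 107 genes had a median of -0.11, beside -0.0017 over all genes, and ran from -3.21 to 2.19. Before adjustment, 24 LINC genes had p under 0.05, 13 with higher and 11 with lower values, which is 22.4% beside 18.0% of all genes.

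Among genes not called, the widest rise was that of LINC02384, at 0.134 and 0.164 CPM with EV and 0.765 and 0.657 with RUNX1::ERG (log2 fold change 2.19, SE 0.57, adjusted p = 0.0564). LINC01270 had 0.168 and 0.137 CPM with EV and 0.546 and 0.685 with RUNX1::ERG, which is 10, 10, 45 and 49 counts. Both have few counts with EV and groups apart. Both also reached 0.5 CPM with RUNX1::ERG only, so the choice of genes itself favoured such a rise. LINC01124 was at 0.854 and 0.437 CPM with EV and 1.86 and 1.65 with RUNX1::ERG, and LINC01160 at 0.586 and 0.833 against 1.76 and 1.49. LINC03040, once listed as C6orf223, had 1.01 and 0.314 CPM with EV and 1.46 and 1.62 with RUNX1::ERG. Their adjusted p ran from 0.0886 to 0.252 for LINC01270, LINC01124, LINC03040 and LINC01160.

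Of the falls, LINC02806 had the widest log2 fold change of all 107 genes, -3.21 (SE 0.89, adjusted p = 0.0697), from 13.3 and 0.820 CPM with EV and 0.814 and 0.713 with RUNX1::ERG. It was high in the first EV library alone, and without that library the log2 fold change was -0.18. LINC00885 had 9.67 and 3.98 CPM with EV against 2.90 and 2.71, and LINC00528 had 3.12 and 1.13 against 1.11 and 0.908, again with the first EV library highest. LINC00668 was different, with closer replicates at 2.98 and 2.44 CPM with EV and 1.17 and 1.15 with RUNX1::ERG (log2 fold change -1.27, SE 0.34, adjusted p = 0.0623). LINC01097 had 1.29 and 1.05 CPM with EV and 0.534 and 0.335 with RUNX1::ERG, also with groups apart and an adjusted p of 0.112.

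**Figure D3:**
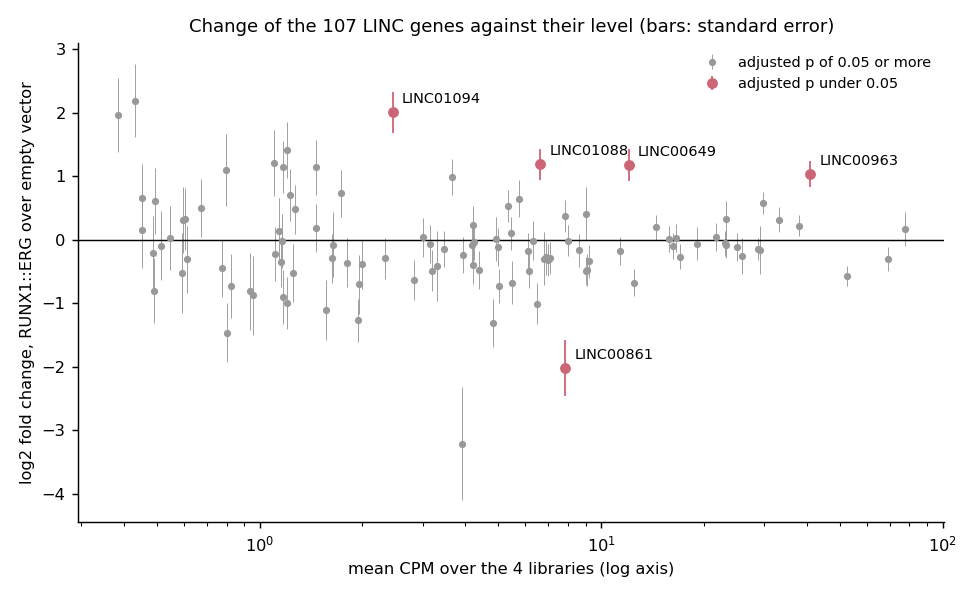
Log2 fold change (RUNX1::ERG over EV, edgeR) of each of the 107 LINC genes against its mean CPM on a log axis, with bars of 1 standard error; red marks the 5 called genes. LINC02384, the highest grey point at 2.19, was not called, and it was chosen through the RUNX1::ERG libraries only, which favours a rise. LINC02806 at -3.21 has the widest standard error (0.89), and LINC00963, the rightmost called gene, has a log2 fold change of 1.03 at 40.9 CPM.

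LINC01094 and LINC01088 lie in the same stretch of chromosome 4, 256300 bases apart, and the coding genes around them were read off the same test. ANXA3, a calcium-dependent phospholipid-binding annexin 28329 bases from LINC01094, had 3.28 and 1.52 CPM with EV and 5.88 and 7.29 with RUNX1::ERG, and was called (log2 fold change 1.43, SE 0.36, adjusted p = 0.0487). BMP2K, a serine/threonine kinase gene between the LINC genes of the pair, had 80.4 and 73.0 CPM with EV and 119 and 137 with RUNX1::ERG, and was called with a smaller change (log2 fold change 0.70, SE 0.16, adjusted p = 0.0342). The stretch was taken as 500 kb on either side of the LINC pair. Of the 8 genes tested in it, both LINC genes included, 5 were called, all higher: the LINC pair, ANXA3, BMP2K and LINC00989. The stretch was placed around the LINC pair because both were called. LINC00989 passed the filter on low counts through the RUNX1::ERG libraries alone. This count is therefore a description only and cannot be compared with the 3.64% of all genes called higher. ANXA3 and BMP2K were not used to place the stretch. ANXA3 passed the threshold narrowly, and for neither gene are the alternative fits given here. PAQR3, whose start is 47 bases from that of LINC01088, did not pass, with 42.7 and 41.5 CPM with EV and 43.1 and 48.0 with RUNX1::ERG (log2 fold change 0.08, SE 0.17, adjusted p = 0.880). NAA11 did not pass either (log2 fold change -0.11, adjusted p = 0.844), nor did FRAS1, which had at most 26 counts.

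A further LINC gene of the stretch, LINC00989, lay below the level that defines expression here. It had 0 counts in both EV libraries and 33 and 31 counts, or 0.401 and 0.433 CPM, in the RUNX1::ERG libraries, which is at least 9.14-fold higher against a floor of 3 counts per EV library, and it was called (adjusted p = 0.0102). It lies 182129 bases beyond the end of LINC01088. It was singled out after its values were seen.

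**Figure D4:**
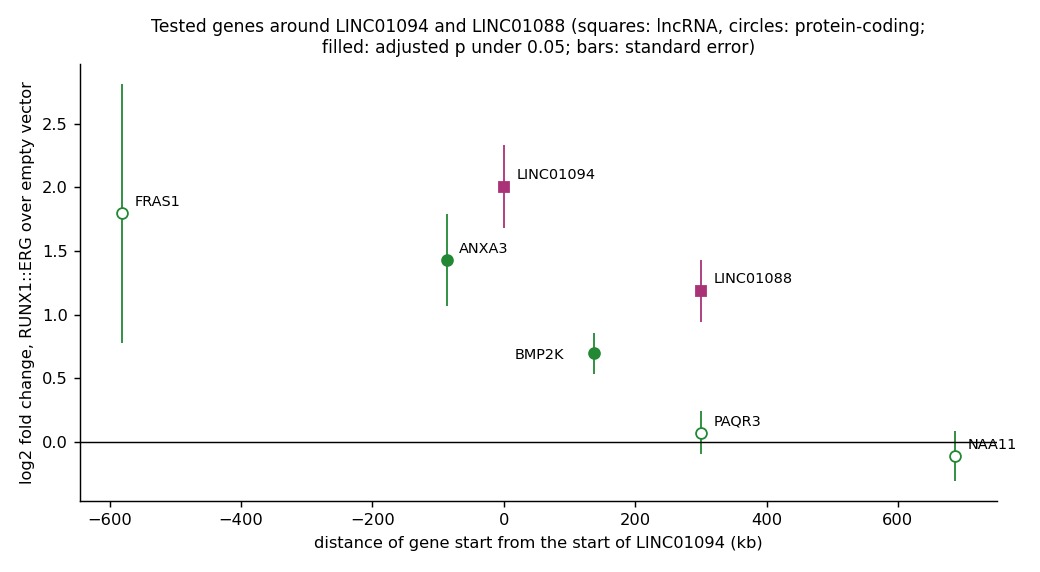
Log2 fold change (RUNX1::ERG over EV, bars of 1 standard error) of tested genes within 500 kb of LINC01094 or LINC01088, against the distance of each gene's start from that of LINC01094 in kb; squares are long noncoding RNA genes, circles protein-coding genes, filled symbols were called. LINC00989 is left out because it had no count with EV. ANXA3, LINC01094, BMP2K and LINC01088 lie above 0 and were called, while PAQR3, at the same distance as LINC01088, lies near 0.

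The same was read for the other called genes. Within 500 kb of LINC00963 none of the 14 tested genes was called. The largest changes there were those of IER5L (log2 fold change 0.83, adjusted p = 0.282) and of CRAT, carnitine acetyltransferase, with 20.7 and 15.2 CPM with EV and 33.0 and 25.8 with RUNX1::ERG (log2 fold change 0.68, adjusted p = 0.102). Around LINC00649, 1 of 14 tested genes was called, SLC5A3, a sodium and myo-inositol cotransporter gene 95874 bases away, with 52.5 and 61.9 CPM with EV and 111 and 119 with RUNX1::ERG (log2 fold change 0.96, SE 0.17, adjusted p = 0.00963). ITSN1, an endocytic scaffold gene on the other side, did not pass (log2 fold change 0.41, adjusted p = 0.288). The widest change there was that of KCNE1, a potassium channel subunit gene of low level, with 0.168 and 0.0956 CPM with EV and 0.559 and 0.880 with RUNX1::ERG (log2 fold change 2.42, SE 0.62, adjusted p = 0.0527), and SMIM11 had a log2 fold change of -0.67 (adjusted p = 0.0590). Near LINC00861, none of 3 tested genes was called, and the pseudokinase gene TRIB1 had a log2 fold change of 0.07 (adjusted p = 0.926).

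Across all LINC genes placed, 159 distinct coding neighbours were tested, and 9 of them, 5.66%, were called, beside the 5.21% of protein-coding genes. Of the 737 genes called in all, 560 were higher with RUNX1::ERG, as were all 9 of these neighbours. Besides ANXA3 and BMP2K they were MDM1, a microtubule-binding protein gene 507 bases from LINC02384, with 14.6 and 14.02 CPM with EV and 26.9 and 27.0 with RUNX1::ERG (log2 fold change 0.87, adjusted p = 0.0237), and INKA2 beside LINC01160 (1.47, adjusted p = 0.0391). SKAP2, an adaptor protein gene, lies beside LINC02860, NOTCH1, a receptor gene, beside LINC01451, and LCP2, an adaptor of immune receptor signalling, beside LINC01366. Their log2 fold changes were 0.94, 0.94 and 1.23, whereas those LINC genes had 1.14, 1.11 and -0.40 with adjusted p of 0.189, 0.348 and 0.546. The widest changes were those of SIGLEC6, a sialic acid-binding lectin, and CD93, a transmembrane C-type lectin-like receptor, at 3.16 and 3.45 on the log2 scale, beside LINC01530 at 0.71 and LINC00656 at 0.41. A called coding gene was thus next to a called LINC gene only in the case of LINC01094 among these nearest neighbours.

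In the 10 head-to-head pairs, 6 had log2 fold changes of the same sign, and none of the 10 coding partners was called. SP5, a zinc finger transcription factor gene that starts 770 bases from LINC01124, came nearest, with 0.905 and 0.820 CPM with EV and 2.28 and 1.96 with RUNX1::ERG (log2 fold change 1.26, adjusted p = 0.0839), beside 1.42 and an adjusted p of 0.1003 for LINC01124. In the pair of LINC01089 and the histone methyltransferase gene SETD1B the starts lie 103 bases apart. SETD1B had 77.7 and 65.8 CPM with EV and 82.7 and 77.3 with RUNX1::ERG, while LINC01089 was at 42.9 and 18.1 CPM with EV and 37.9 and 18.1 with RUNX1::ERG, so the LINC gene differed by more than 2 times between replicates and its partner did not. LINC01089 also shares 1724 exon bases with RHOF on the same strand, so its counts may be split with that gene.

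The libraries of the LINC genes also differed by replicate number. Both replicate 1 libraries lay above both replicate 2 libraries for 34 of the 107, or 31.8%, beside 18.8% of all genes tested, and below for 7, or 6.54%, beside 17.0%. The first EV library was the highest of the 4 for 57 genes, or 53.3%, beside 26.3% of all genes. EV replicate 1 exceeded replicate 2 for 85 genes (79.4%, beside 52.3%), and RUNX1::ERG replicate 1 exceeded replicate 2 for 64 (59.8%, beside 50.4%). The log2 ratios of replicate 1 to replicate 2 in the EV group and in the RUNX1::ERG group had a Pearson r of 0.42 across the 107 genes, beside 0.30 across all genes, as a description in which every gene shares the same 4 libraries. Replicate 1 was the shallowest library of all in the EV group and the deepest in the RUNX1::ERG group. The part of depth in this pattern was not tested.

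LINC01089 and LINC01000 show this pattern among the most abundant genes, at the values given before. LINC00173 had 5.88 and 1.61 CPM with EV and 4.12 and 1.62 with RUNX1::ERG, and LINC00863 had 25.7 and 14.96 against 33.0 and 19.1. In these genes replicate 1 was above replicate 2 in both groups and the groups overlapped. NEAT1, the noncoding RNA that scaffolds nuclear paraspeckles, behaved likewise with 1290 and 341 CPM with EV and 791 and 298 with RUNX1::ERG. For 6 LINC genes, 5.61% beside 1.34% of all genes, the first EV library was at least 2 times each other library, namely LINC02806, LINC02184, LINC00910, LINC00528, LINC00885 and LINC00861.

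**Figure D5:**
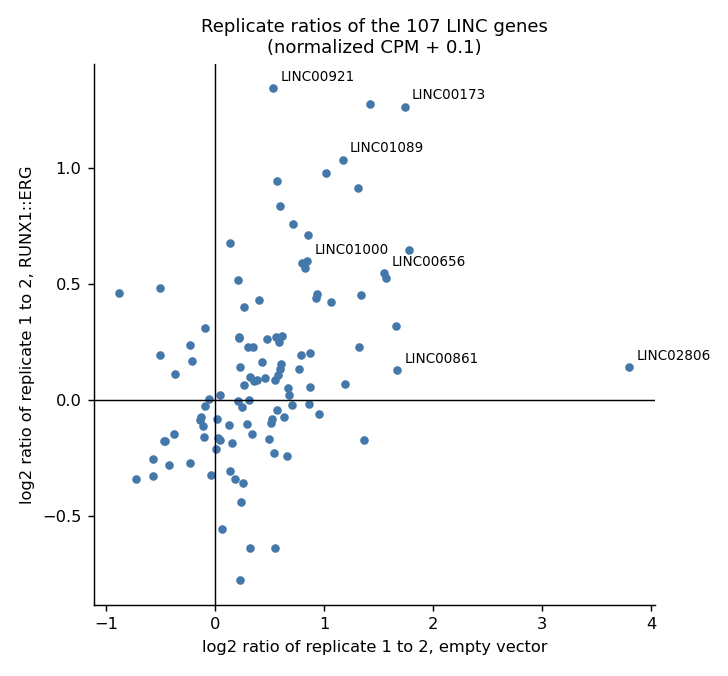
Log2 ratio of replicate 1 to replicate 2 in the RUNX1::ERG group against the same ratio in the EV group for the 107 LINC genes, from normalized CPM plus 0.1. Most points lie to the right of 0, where EV replicate 1 was higher (85 of 107), and LINC02806 stands apart on the horizontal axis only.

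Some of the 107 genes overlap or adjoin one another. LINC00115 and LINC01128 on chromosome 1 overlap by 507 exon bases on opposite strands, and LINC00526 and LINC00667 on chromosome 18 by 773. LINC00174 and LINC03011 on chromosome 7 start 41 bases apart on opposite strands. Without a stated strand setting the counts of the overlapping pairs may be mixed, and none of these 6 genes was called.

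Other long noncoding RNA genes with a name of their own were read from a list chosen with earlier results of these data known. Of 32 listed, 31 were in the files and 29 were tested, of which none was called higher and 2 were called lower, or 6.90%, beside 1.15% of all genes called lower. The median over the tested genes of the list was -0.37 on the log2 scale, beside -0.0017 over all genes. The list held many SNHG genes, GAS5 and ZFAS1, whose log2 fold changes were all negative. It therefore does not stand for long noncoding RNA genes at large. Of the 619 tested long noncoding RNA genes other than LINC genes, 2.91% were called in either direction. The called genes were SNHG5 (log2 fold change -0.70, adjusted p = 0.035) and SNHG29 (-0.59, adjusted p = 0.0403), both hosts of small nucleolar RNAs. NORAD, which binds Pumilio proteins, had 400 and 449 CPM with EV and 427 and 500 with RUNX1::ERG, an adjusted p of 0.849, and MALAT1, a nuclear speckle RNA, had 260 and 158 against 353 and 224, an adjusted p of 0.408. The single gene NORAD thus stood at 400 CPM or more, beside sums of 811 to 1077 CPM over all 107 LINC genes together.

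Below the level that defines expression, 46 further LINC genes had enough counts to be tested and 4 were called, or 8.70%, beside 4.79% of all genes. A gene that passes the filter on low counts through 1 group alone has to differ, so this share is a description only. Besides LINC00989, LINC01502 had 0 counts with EV and 54 and 21 with RUNX1::ERG, and LINC00607 had 0 with EV and 20 and 12 with RUNX1::ERG, at least 10.4-fold and 4.5-fold higher against the same floor. LINC01300 had 47 and 20 counts with EV and 2 and 0 with RUNX1::ERG. These genes are the ones that a level in 2 libraries of 0.5 CPM leaves out, and they were named after their values were seen.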

How the data were processed

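Poly(A) RNA-seq of K562 cells was used, with 2 EV and 2 RUNX1::ERG libraries grouped by their labels. The deposited values are raw counts, with each row keyed by an NCBI gene number, and the submitters' processing notes name HISAT2 2.2.1, featureCounts 2.0.1 and hg19, while the annotation, strand setting and treatment of read pairs are not given in the sources used here. Of counts from 1 to 10, 66.7% to 68.9% were even, so the mates of a pair may have been counted singly, and floors, which cover counting error only, would then be too low. Library totals ran between 59695387 and 82352144 counts.

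Symbols came from a RefSeq table (92.2% of genes matched), positions, neighbours and lengths from GENCODE v44 lifted to GRCh37. Calls were made in R 4.3.3 with edgeR 4.0.16 (TMM, filterByExpr, quasi-likelihood test, Benjamini-Hochberg, 0.05) over all genes, with no covariate. DESeq2 1.42.0, limma 3.58.1, other scalings and filters, a replicate block and leaving out each library were alternatives. The fit was tested on simulated counts with a dispersion, the spread beyond counting error, of 0.04. It called 29% of 100 genes changed by 1 on the log2 scale and 97% of 100 changed by 2. Of 14971 unchanged genes it called 4. A change near 1 was thus often missed in the simulated counts. The study calls the replicates biological, without saying which step was repeated, so p-values measure only the spread between these samples. An exact permutation test of 2 against 2 cannot go below p = 0.333. The replicate number was not taken as pairing, since only 2 numbers exist.

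Named were all called LINC genes, the 10 highest by mean CPM, the 5 widest rises and 5 widest falls among genes with groups apart but not called, the 3 on each side of the level, the neighbours of called genes and a list of other long noncoding RNAs. The genes and lists were chosen with earlier results of these data known. LINC gene names used as further examples were chosen after their values were seen.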

Additional observations from a re-analysis of the deposited data

How the results depend on the processing

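The 5 calls among LINC genes (4.67%, beside 4.79% of all genes) became 15 with no filter on low counts (14.02%), when 1500 genes were called in all (7.38%, or 9.58% of the genes tested in the fit reported). They became 16 with the replicate block (14.95%), beside 1733 in all (11.3%), and 11 by DESeq2's Wald test (10.3%), beside 1204 in all (7.51% of genes with an adjusted p). Leaving out each library gave 2 to 16 LINC genes (1.87% to 14.95%) and 354 to 1355 genes in all (2.30% to 8.80%), where the library left alone in its group is assumed to vary like those of the other group. The lowest counts came without RUNX1::ERG replicate 1, when LINC01094 and LINC00861 were called, and the highest without EV replicate 2. A level of 0.25 CPM gave 8 called LINC genes. Scaling by library totals left 4 called LINC genes, all of them higher. The share of LINC genes called was thus above that of all genes in some fits and near it in others. The cause of these moves was not tested, except that the lower level admits more genes.

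LINC01094 was called in 12 of 12 alternative fits, LINC00963 and LINC00649 in 11, LINC01088 in 10 and LINC00861 in 8. LINC00861 was lost with library totals (adjusted p = 0.0522), by DESeq2 (0.0992), by limma voom (0.0839) and without EV replicate 1 (0.0587). With one library left out, the log2 fold change of LINC01000 ran from -0.19 to 0.65, that of LINC01089 from -0.77 to 0.55 and that of LINC01003 from -0.65 to 0.29, so these had no stable direction. Over the 24 named LINC genes, 250 alternative values kept direction and side of the threshold. Of the others, 29 crossed into a call, 8 lost one and 5 changed sign. The 250 include repeats of the fit reported, for the 5 called genes under a further limit of 1 on the absolute log2 fold change.

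Deviations of same-numbered libraries from their group means had a correlation of 0.27 over all genes and 0.41 over the LINC genes. With the replicate block LINC00200, LINC00205, LINC00668 and LINC00885 were among 11 LINC genes added, and none of the 5 was lost. Depth limits genes near 0.5 CPM, where 29.8 to 41.2 counts stand behind a value.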
